A study of Mus musculus with 6 samples.

Results

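Alternative splicing events that were almost fully included in control medullary thymic epithelial cells were followed under knockdown of Raver2 or Setd2. An event was a member if its inclusion frequency, the share of transcripts estimated to include it, was above 0.99 in both control libraries. The members were thus chosen by measured values of the control libraries alone, and 322 events in 277 genes met the rule, of 4658 events in 2685 genes matched across all 6 libraries. Under each knockdown a minority of members was lower in both libraries, most members were not, and events chosen the opposite way, as full in a knockdown, were lower in the controls about as often.

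The cells were mTECs taken directly from mice and sorted as CD45- EpCAM+ Ly51- I-A/E+, then seeded on human dermal fibroblasts held in a fibrin gel. All 6 cultures received a concentrated lentivirus made with the pLKO.3G vector, which carries eGFP, so the controls share infection, GFP and co-culture with the knockdowns. The control group (Ctr, 2 libraries) expressed an shRNA against LacZ, a bacterial gene that mouse cells lack. The Raver2 group (2 libraries) and the Setd2 group (2 libraries) each had 1 library with hairpin sh1 and 1 with hairpin sh2, so the libraries of a knockdown differ by hairpin as well as by culture. Cells were collected 5 days after infection by sorting those that were DAPI-, I-A/E+ and GFP+. The labels give no strain, age or number of animals. Separate cultures or animals behind libraries of 1 group are not stated either. The p-values compare knockdown libraries, whose spread includes the hairpin and may otherwise be technical. The fit also draws the error of each event partly from the spread of all events.

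In most genes the spliceosome can join exons in more than one way, and the inclusion frequency says how often a given exon or segment is kept. An event near 1 behaves as a constitutive part of the transcript. RAVER2 is an RNA-binding protein that partners PTB, a repressor of exons, and SETD2 is the methyltransferase that places H3K36 trimethylation along transcribed genes, a mark linked to splicing choice. Medullary thymic epithelial cells transcribe a broad range of tissue-restricted genes for display to developing T cells, many of them under the transcriptional regulator Aire.

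The events are known by gene symbol and a running number in the gene. Which exon, intron or splice site an event concerns is not given with the frequencies, so genes are located here and events are not. The depth behind each frequency is unknown, so no counting interval is given, and an exact 1 or a value near 0 can rest on few reads. Events were matched by order within the gene, which plays no part in the 101 members whose gene has a single event. The marker lists gave no level: of 10 mTEC markers only Aire and Cd74 had a matched event, of 10 fibroblast markers only Postn, and of 10 leukocyte markers Ptprc, Cd8a and Lck. In such bulk libraries, fewer cells of a type and less RNA per cell cannot be told apart, and neither can a changed mix of cells and changed splicing within cells.

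Full inclusion was close to complete in the control libraries. Of the 322 members, 61 were exactly 1 in Ctr library 1 and 52 in Ctr library 2. The lowest member values were 0.99082 and 0.99021. Just inside the rule stood Tecr, an enzyme of fatty acid elongation, with 0.997 and 0.99021 in the Ctr libraries. Just outside stood event 6 of Aire, with a value above 0.99 in library 1 and 0.98997 in library 2. The members came from 241 genes with 1 member event, 30 with 2, 4 with 3 (Rad51d, Mtg2, Ank1 and Tro), 1 with 4 (Slc10a7) and 1 with 5 (Aire). Among the 176 member genes that had several events, all events were members in 8.

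In the knockdown libraries the members stayed high on the whole, with a tail that reached 0. Their median was above 0.99 in each of the 4 libraries. Their mean was 0.872 and 0.869 in the Raver2 libraries and 0.859 and 0.873 in the Setd2 libraries. Of the 322 members, 209 and 198 were still above 0.99 in the Raver2 libraries, and 210 and 226 in the Setd2 libraries. At the other end, 25 and 24 members were below 0.01 in the Raver2 libraries, and 29 and 26 in the Setd2 libraries. In all, 120 members of 108 genes were above 0.99 in every library of the study.

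A loss is used below for a member whose highest library of a knockdown lay over 0.1 beneath its lowest Ctr library. Because the Ctr values chose the members, comparisons with Ctr are descriptions and carry no test. Under Raver2 knockdown 37 of 322 members in 36 genes had a loss (11.5%), where 5.13% of all matched events did. Under Setd2 knockdown 28 members in 28 genes did (8.70%), where 5.45% of all matched events did. Events that start high have more room to go down: among the 2908 events with room for such a loss, 8.22% had it under Raver2 and 8.73% under Setd2 knockdown. Losses of over 0.5 were made by 23 members under Raver2 (7.14%) and 18 under Setd2 knockdown (5.59%), where 1.55% of all matched events made them in each. Many of all events had no room for that loss: their median was 0.401 in Ctr library 1 and 0.42 in Ctr library 2. Both knockdowns are compared with the same 2 Ctr libraries, so their losses are not independent. The rule asked for members lost in both libraries of each knockdown. There were 17 in 17 genes (5.28%), where 2.64% of all matched events were lost in this way. All matched events again include those with no room for the loss.

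The mirror of the rule gauges how far such losses follow from choosing events at the ceiling. Of 341 events above 0.99 in both Raver2 libraries, 48 (14.1%) lay over 0.1 lower in both Ctr libraries. Of 379 events above 0.99 in both Setd2 libraries, 47 (12.4%) did. Both mirror shares were larger than the members' shares of 11.5% and 8.70%. For the loss under both knockdowns, the mirror was 208 events above 0.99 in all 4 knockdown libraries. Of these, 16 lay over 0.1 lower in both Ctr libraries, a larger share than 17 of 322 members. The members had to be full in fewer libraries than this mirror. Between the knockdowns, where no control took part, 28 of the 341 events full in Raver2 (8.21%) were lower in Setd2, and 45 of the 379 full in Setd2 (11.9%) were lower in Raver2. By their means, events full in Raver2 averaged 0.845 and 0.857 in the Ctr libraries, and events full in Setd2 averaged 0.872 and 0.871. At a gap of over 0.1 the members of Ctr therefore lost inclusion no more often than the mirror sets did.

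The order turned for large gaps. Losses of over 0.5 were made by 7.14% and 5.59% of members, against 5.28% of the Raver2 mirror and 3.43% of the Setd2 mirror. For losses of over 0.9 the shares were 4.66% (15 members) and 3.42% (11 members), against 3.23% (11 events) and 1.58% (6 events). These differences rest on a handful of events and were not tested. The plot of loss against gap shows the crossing.

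**Figure D1:**
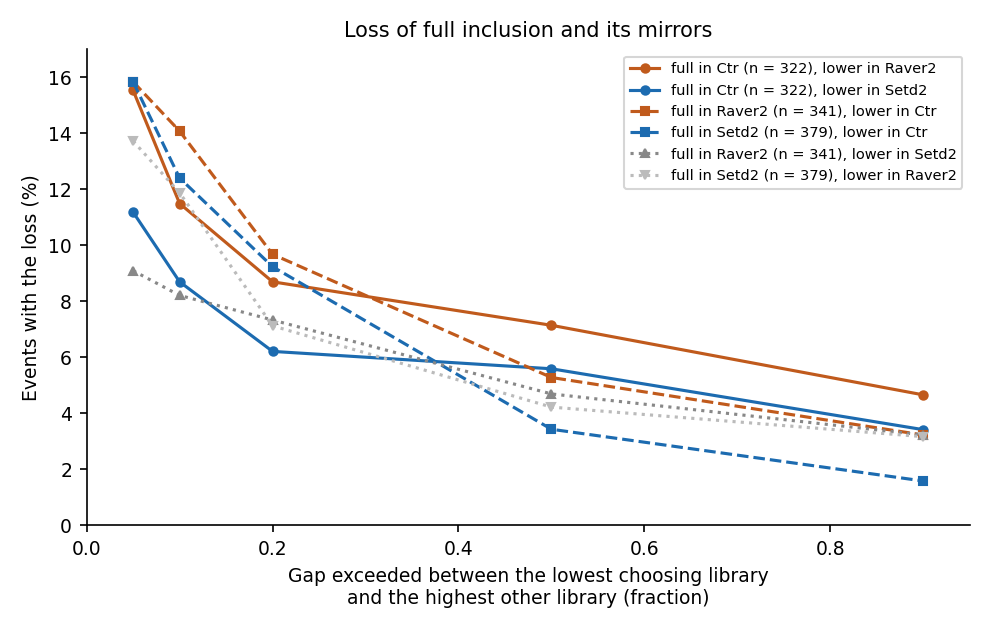
Share of events (y axis, percent) whose loss exceeded the gap on the x axis (inclusion fraction), for events full in Ctr (solid lines), the mirror sets full in a knockdown and lower in Ctr (dashed), and the sets compared between knockdowns (dotted). At a gap of 0.1 the dashed lines, 14.1% and 12.4%, lie above the solid lines, 11.5% and 8.70%; at 0.5 the solid lines are the upper ones.

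The same gauge can be read from single libraries. Of 645 events above 0.99 in Ctr library 1, 181 (28.1%) were over 0.1 lower in Ctr library 2, and of 591 above 0.99 in library 2, 191 (32.3%) were lower in library 1. Within the knockdown groups the share was 26.5% to 29.6%. From a Ctr library to a knockdown library it was 30.5% to 33.8% over the 8 pairs. From a knockdown library to a Ctr library it was 30.4% to 36.2%. Between the Raver2 and Setd2 libraries it was 27.7% to 33.1% over 8 pairs, which overlaps the other ranges. The median was 28.6% over the 6 pairs within a group and 30.1% between the knockdowns. It was 32.4% from Ctr to knockdown and 33.2% from knockdown to Ctr. The pair from Ctr library 2 to library 1 was the only one within a group that reached the range of the pairs between Ctr and knockdown.

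The hairpins of a knockdown often differed. For Raver2, 60 members (18.6%) had the loss with 1 hairpin and not the other, against 37 with both. For Setd2, 64 members (19.9%) had it with 1 hairpin, against 28 with both. Full disagreement, with 1 library below 0.01 and the other above 0.99, occurred in 13 members for Raver2 and in 28 members for Setd2. Trp63, the master regulator of stratified epithelia, was one of the 13 (event 1): the Raver2 libraries had a value below 0.0001 and 0.998, and both Setd2 libraries were above 0.99. Rerg, a Ras-related growth inhibitor gene, was one of the 28, with 0.00224 and a value above 0.99 in the Setd2 libraries. Trp63 and Rerg were picked after their values had been seen. Counted over the 4 knockdown libraries, 194 members had no loss in any, 55 had it in 1, 37 in 2, 19 in 3 and 17 in all 4.

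**Figure D2:**
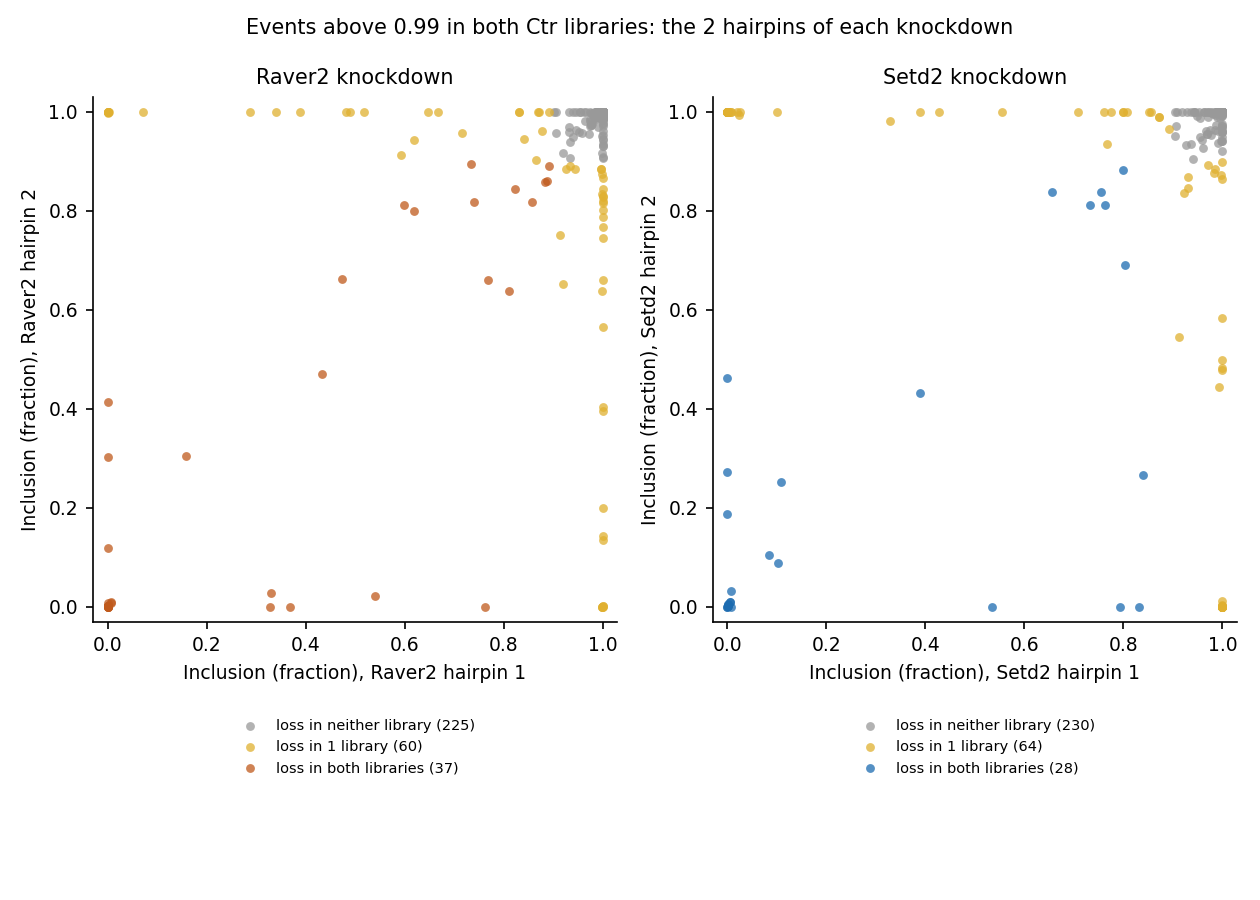
Inclusion fraction of each of the 322 members with hairpin 1 (x axis) and hairpin 2 (y axis) of Raver2 (left) and Setd2 (right), coloured by loss in neither, 1 or both libraries. Most of the 60 and 64 members lost with 1 hairpin lie along the upper and right edges, and members lost with both hairpins include a cluster at the lower left.

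Among all members, 7 went from above 0.99 in both Ctr libraries to below 0.01 in all 4 knockdown libraries, and 5 of them are the single event of their gene. The opposite pattern was below 0.01 in both Ctr libraries and above 0.99 in all 4 knockdown libraries. It was shown by 2 events, the single event of Kng2 and event 5 of Slc10a7. The 7 are out of 322 members and the 2 out of 208 events above 0.99 in all 4 knockdown libraries. The counts therefore have unlike bases. Ctr and the knockdowns do not overlap in the 7 and the 2 events because of how they were picked out.

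Gucy2c, the intestinal receptor guanylate cyclase C and thus a tissue-restricted gene (chromosome 6, 136697284 to 136781765, minus strand, mm10, GENCODE M21), had 0.99971 and 0.998 in Ctr. It had 0.000371 and 0.000373 in the Raver2 libraries and 0.000516 and 0.000775 in the Setd2 libraries. A730056A06Rik, annotated as an antisense gene (chromosome 7, 73314003 to 73375774, minus strand), was above 0.99 in both Ctr libraries. Its knockdown values were 0.000785 and 0.000933 for Raver2 and 0.00198 and 0.00364 for Setd2. In both genes all 4 knockdown libraries were close to 0 and far from Ctr, which is fixed by how these events were picked out.

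Dlg5, a scaffold of cell polarity and adhesion (chromosome 14, 24133953 to 24245920, minus strand), was above 0.99 in both Ctr libraries. It had 0.00646 and 0.00727 in the Raver2 libraries and 0.0058 and 0.00893 in the Setd2 libraries. Sphk1, the kinase that makes sphingosine 1-phosphate (chromosome 11, 116530925 to 116536674), had a value above 0.99 and 0.995 in Ctr. Its Raver2 values were below 0.0001 and 0.00698, and its Setd2 values were below 0.0001 and 0.000529. Atp6v1c2, a subunit of the proton pump of acidic organelles (chromosome 12, 17284721 to 17329359, minus strand), had 0.9989 and 0.997 in Ctr. It had 0.00191 and 0.00179 in the Raver2 libraries and 0.00529 and 0.00965 in the Setd2 libraries. These 3 genes, like the pair before them, have 1 event each, so their match does not depend on the order of events.

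The other members at the low end in all 4 knockdown libraries belong to genes with 2 events. Event 2 of Lin7a, a scaffold of junctions and synapses (chromosome 10, 107271686 to 107421474), was above 0.99 in both Ctr libraries, 0.00196 and 0.00201 under Raver2 knockdown, and 0.00219 and 0.00515 under Setd2 knockdown. Event 1 of Lin7a had the opposite pattern, with 0.044 and 0.0271 in Ctr, 0.998 and 0.998 under Raver2, and 0.998 and 0.995 under Setd2 knockdown. Event 2 of Lrrc4c, a ligand of netrin-G at synapses (chromosome 2, 96318169 to 97631666), was above 0.99 in both Ctr libraries, 0.00116 and 0.00127 under Raver2 knockdown, and 0.000698 and 0.00376 under Setd2 knockdown. Its event 1 was below 0.0001 in all 6 libraries.

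A further 7 named members with the loss in all 4 knockdown libraries reached intermediate values, and there the libraries spread widely. All 7 were above 0.99 in both Ctr libraries by the rule. Event 4 of Ank3, the ankyrin of the axon initial segment and lateral epithelial membranes, was above 0.99 in Ctr, 0.00151 and 0.302 under Raver2 knockdown, and 0.00628 and 0.0312 under Setd2 knockdown. Event 3 of Dab2ip, a GTPase-activating protein for Ras, had 0.158 and 0.304 under Raver2, and 0.0837 and 0.105 under Setd2 knockdown. Nr1h4, the bile acid receptor FXR, had 0.331 and 0.0281 in the Raver2 libraries and 0.108 and 0.252 in the Setd2 libraries. In these genes the hairpins of Raver2 stood further apart than those of Setd2.

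Dmtn, the actin-bundling protein dematin, had 0.37 and a value below 0.0001 under Raver2 knockdown and was below 0.0001 in both Setd2 libraries. Event 2 of Ntn5, a member of the netrin family, had a value below 0.0001 and 0.413 under Raver2, and 0.389 and 0.431 under Setd2 knockdown. AB041803 had 0.433 and 0.471 under Raver2 knockdown, and a value below 0.0001 and 0.273 under Setd2 knockdown. Event 6 of Adora1, the adenosine A1 receptor, was below 0.0001 in 3 knockdown libraries and 0.535 in Setd2 library 1. Of the other 5 events of Adora1, 4 differed by more than 0.5 between the Ctr libraries themselves, from 0.388 to 0.992 in event 4 and from 0.9986 to below 0.0001 in event 1, for example.

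The other 3 members lost under both knockdowns had smaller losses. Event 2 of Cflar, the inhibitor of caspase-8 known as c-FLIP (chromosome 1, 58711508 to 58758884), had a value above 0.99 and 0.996 in Ctr. It had 0.824 and 0.844 in the Raver2 libraries and 0.763 and 0.812 in the Setd2 libraries. Event 1 of E230029C05Rik, a non-coding gene, had 0.768 and 0.659 under Raver2, and 0.803 and 0.69 under Setd2 knockdown. Its event 2 was a near complement, with sums within 0.02 of 1 in every library, so the pair are not independent. Rbm43, an RNA-binding motif gene, had 0.739 and 0.818 under Raver2, and 0.799 and 0.882 under Setd2 knockdown, the smallest of the 17 losses shared by the knockdowns.

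**Figure D3:**
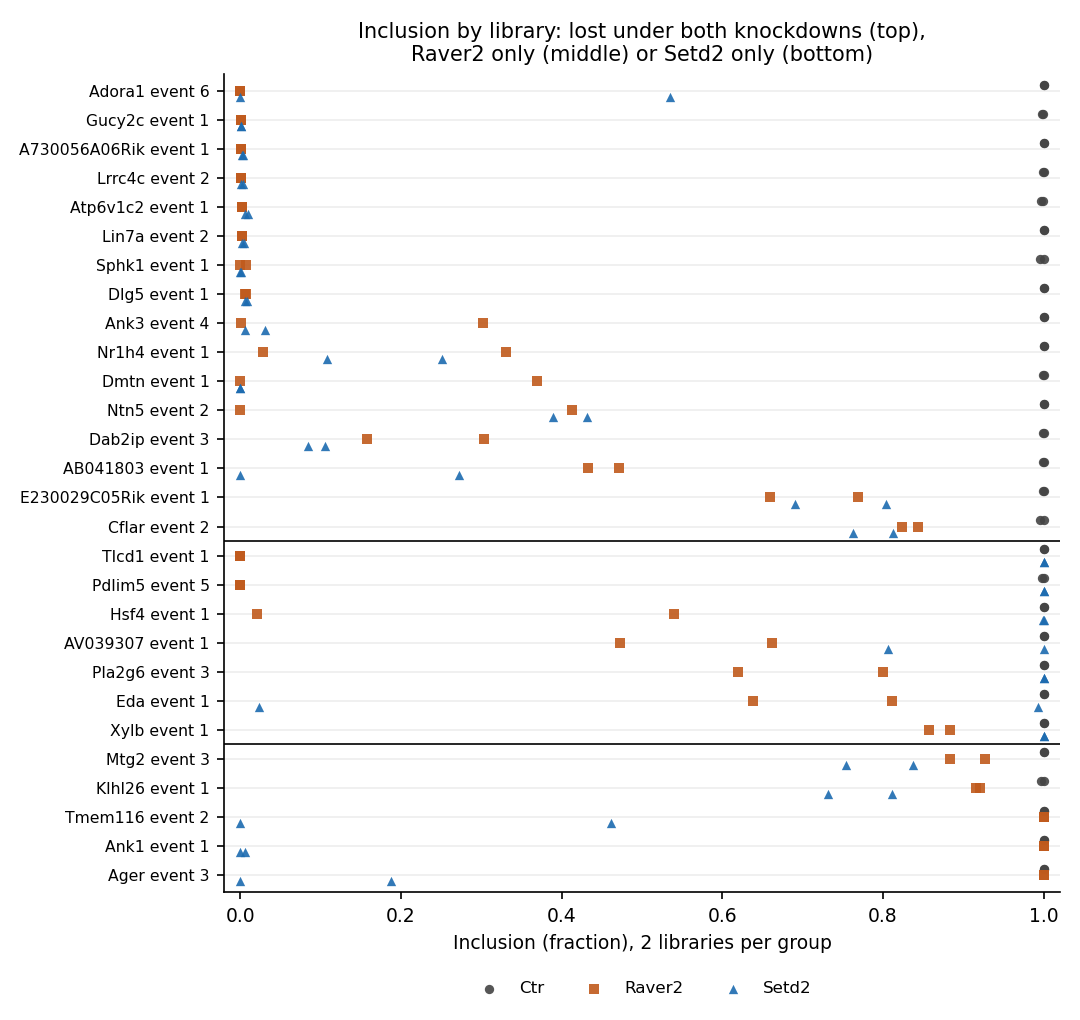
Inclusion fraction (x axis) in each of the 2 Ctr, 2 Raver2 and 2 Setd2 libraries for 28 named members, 16 with the loss under both knockdowns (top), 7 under Raver2 only (middle) and 5 under Setd2 only (bottom). Control points sit at the right edge by the rule; the 8 uppermost members include the 7 below 0.01 in all knockdown libraries.

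Losses under Raver2 knockdown alone were made by 20 members, and those under Setd2 knockdown alone by 11. Of these, 5 of the first and 3 of the second were above 0.99 in both libraries of the other knockdown. Event 1 of Tlcd1, a membrane protein of lipid homeostasis (chromosome 11, 78176711 to 78181909), was below 0.0001 in both Raver2 libraries and above 0.99 in the Ctr and Setd2 libraries. Event 5 of Pdlim5, an actin-associated adaptor with PDZ and LIM domains (chromosome 3, 142239590 to 142395696, minus strand), had 0.000204 and a value below 0.0001 in the Raver2 libraries and was above 0.99 in both Setd2 libraries. Event 1 of Hsf4, a heat shock factor of the lens, had 0.54 and 0.0214 in the Raver2 libraries. Event 3 of Pla2g6, a calcium-independent phospholipase A2, had 0.619 and 0.799, and Xylb, a xylulose kinase, had 0.883 and 0.858. All 3 were above 0.99 in both Setd2 libraries.

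Among the 3 members lost under Setd2 knockdown and above 0.99 in both Raver2 libraries, the largest loss was in event 1 of Ank1, which links spectrin to the erythrocyte membrane (chromosome 8, 22974844 to 23150497). It had 0.0063 and a value below 0.0001 in the Setd2 libraries and was above 0.99 in the Ctr and Raver2 libraries. Of its other member events, event 8 had 0.0063 and event 11 a value below 0.0001 in Setd2 library 1, while both were above 0.99 in Setd2 library 2. The 3 events were therefore alike in library 1 and differed in library 2. Event 3 of Ager, the receptor for advanced glycation end products, had a value below 0.0001 and 0.188 in the Setd2 libraries. Event 2 of Tmem116, a transmembrane protein gene, had a value below 0.0001 and 0.462. Klhl26, a Kelch family gene, had 0.732 and 0.811 in the Setd2 libraries and 0.92 and 0.916 in the Raver2 libraries. Event 3 of Mtg2, a GTPase of the mitochondrial ribosome, had 0.754 and 0.837 under Setd2 knockdown and 0.927 and 0.883 under Raver2 knockdown.

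Other losses under 1 knockdown came with disagreement between the hairpins of the other. Pdpn, podoplanin, a glycoprotein of thymic epithelium and lymphatic vessels, had 0.0018 and 0.00142 in the Raver2 libraries, and a value above 0.99 and 0.00309 in the Setd2 libraries. Adam33, a metalloprotease gene, had 0.000448 and 0.000965 in the Raver2 libraries, and a value above 0.99 and 0.00107 in the Setd2 libraries. Usp43, a deubiquitinase gene, had 0.0709 and a value above 0.99 under Raver2 knockdown, and 0.102 and 0.0881 under Setd2 knockdown. Event 2 of Ece2, an endothelin-converting enzyme gene, had a value above 0.99 and 0.000811 under Raver2, and 0.00216 and 0.00258 under Setd2 knockdown. In each of these, 3 of the 4 knockdown libraries were low and the other was full.

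Further members lost under Raver2 knockdown alone also had Setd2 libraries that stood apart. Event 1 of Tgfb1i1, a focal adhesion protein also named Hic-5, had 0.00654 and 0.00961 under Raver2 knockdown, and a value above 0.99 and 0.0113 under Setd2 knockdown. Event 2 of Ccdc169, a coiled-coil protein gene, was below 0.0001 in 3 knockdown libraries and above 0.99 in Setd2 library 2. Hpn, the membrane serine protease hepsin, had 0.000193 and 0.119 under Raver2 knockdown, and a value below 0.0001 and one above 0.99 under Setd2 knockdown. In Tgfb1i1 the full library was Setd2 library 1, and in the other genes just named it was Setd2 library 2. Event 1 of 6820408C15Rik had 0.00154 and 0.00164 under Raver2 knockdown, and 0.00131 and a value above 0.99 under Setd2 knockdown. Event 1 of Eda, the ligand ectodysplasin of skin appendage development, had 0.811 and 0.639 under Raver2 knockdown, and 0.0232 and 0.993 under Setd2 knockdown. Event 2 of Mid1, a microtubule-associated ubiquitin ligase, had 0.857 and 0.818 under Raver2 knockdown, and 0.554 and a value above 0.99 under Setd2 knockdown. Each of these 3 had its full or nearly full value in Setd2 library 2. Apart from Eda, the genes of this paragraph, and Pdpn, Adam33, Usp43 and Ece2, were picked after their values had been seen.

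The values nearest the limit of 0.1 belonged under Raver2 knockdown to Phka1, a phosphorylase kinase subunit, with a gap of 0.105, and on the other side to event 1 of Cd247, the T cell receptor zeta chain, with 0.0968. Under Setd2 knockdown they belonged to Rbm43 with 0.117 and event 2 of Nfe2l1, a transcription factor of proteasome genes, with 0.0799.

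The comparison of Raver2 with Setd2 knockdown does not use the Ctr libraries and could be tested. limma, fitted to the 4 knockdown libraries over all 4658 events, called 3 of the 322 members (0.932%) at an adjusted p under 0.05, where 0.988% of all events were called. The members called were event 1 of Tlcd1 (Raver2 minus Setd2 -0.99998 ± 0.0431, SE), event 5 of Pdlim5 (-0.99987 ± 0.0431) and event 1 of Ank1 (0.997 ± 0.0430), each with an adjusted p = 0.0491. Inclusion of Tlcd1 and Pdlim5 was thus lower under Raver2 knockdown and that of Ank1 lower under Setd2 knockdown, in 2 of 2 libraries each. Libraries within a group were nearly equal in these events, so the SEs come mainly from the spread of all events. Another 10 members had an unadjusted p under 0.05, among them event 1 of Rad52, a recombination protein, with 0.959 and 0.956 in the Raver2 libraries and values above 0.99 in the Setd2 libraries (difference -0.0424 ± 0.00207, SE, limma, adjusted p = 0.0510). The 3 calls were lost when repeated events were left out (adjusted p = 0.0535), when any 1 knockdown library was left out (0.0604 to 0.107) and with hairpin number as a replicate block (0.504).

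By the gap alone, 6 members (1.86%) lay over 0.1 lower in both Raver2 than in both Setd2 libraries, where 2.58% of all events did. They were Tlcd1, Pdlim5, Hsf4, Pla2g6, Xylb and the non-coding gene AV039307. Another 6 (1.86%) lay over 0.1 lower in both Setd2 libraries, where 2.45% of all events did. They were Ank1, Ager, Tmem116, Klhl26, AB041803 and Pacsin2, a membrane-shaping protein. Both shares were below those of all events.

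Aire contributed 5 member events, the most of any gene (chromosome 10, 78030022 to 78043610, minus strand). Event 3 of Aire had 0.892 and 0.89 in the Raver2 libraries and 0.925 and 0.933 in the Setd2 libraries, and event 8 had 0.887 and 0.86, and 0.922 and 0.835. Events 4 and 9 held the same values, 0.997 and 0.885 under Raver2, and 0.873 and 0.9899 under Setd2 knockdown, so each hairpin pair was split. Event 5 was above 0.99 in all 6 libraries.

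Some members were slightly lower in all 4 knockdown libraries without reaching a loss. In all, 33 members were below 0.99 in every knockdown library, 17 of them those with the loss under both knockdowns. Only 7 of the 33, in 6 genes, stayed within 0.1 of Ctr in all 4 knockdown libraries. The rest fell further in some library. Gsn, the actin-severing protein gelsolin, was above 0.99 in Ctr, 0.932 and 0.959 under Raver2, and 0.954 and 0.949 under Setd2 knockdown. Fyn, a Src family kinase, had 0.986 and 0.9899 under Raver2, and 0.971 and 0.9896 under Setd2 knockdown. Smarcad1, a chromatin remodeller, had a value above 0.99 and 0.991 in Ctr, 0.935 and 0.939 under Raver2, and 0.903 and 0.951 under Setd2 knockdown. Events 1 and 3 of Slc10a7, which held the same values, had 0.977 and 0.972, and 0.969 and 0.954. The groups do not overlap in these genes, but for events at the ceiling that is common by construction. By any amount, 41.0% of members were lower in both Raver2 than in both Ctr libraries, and 38.1% of the Raver2 mirror were lower in Ctr. Those shares concern Raver2 alone. The share lower in all 4 knockdown libraries by any amount was not counted, nor was the share over all matched events. These 4 genes were picked after their values had been seen.

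Gene lists were set against these events as plain counts, beside 6.91% of all matched events that were members. The lists were chosen by hand and are not complete classes. Rbm43, Dlg5, Dmtn and Tgfb1i1, each with a loss, and Smarcad1 are on none of them. Of 105 matched events in RNA-binding and splicing genes, 7 were members (6.67%): events of Srsf5, Srsf10, Cpsf1, Rbfox2, Celf2, Hnrnpa3 and Srrt. None of the 7 had a loss under either knockdown, and 4 were above 0.99 in all libraries. The only one below 0.99 in both Raver2 libraries was Cpsf1, a subunit of the 3′ end cleavage complex, with 0.9396 and 0.9495 under Raver2 and 0.9903 and 0.9364 under Setd2 knockdown. Hnrnpa3, an RNA-packaging protein, had 0.892 and Srsf5, a splicing factor of the SR family, had 0.906 in Raver2 library 1, and both were above 0.99 in the other 5 libraries.

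Of 77 events in chromatin genes, 4 were members (5.19%), and 1 had a loss, under Setd2 knockdown: Cbx5, the heterochromatin protein HP1 alpha, with 0.655 and 0.838, and with a value above 0.99 and 0.66 in the Raver2 libraries. Of 167 events in cytoskeleton and adhesion genes, 13 were members (7.78%) in 9 genes; 3 had the loss under each knockdown, in Lin7a and Ank3 under both, Pdlim5 under Raver2 and Ank1 under Setd2. Apoptosis and DNA repair genes had 7 members of 49 events (14.3%), with the loss in Cflar alone. Translation genes had 5 members of 46 events (10.9%) and leukocyte genes 3 of 48 (6.25%), without a loss in either list. Thymic epithelial and antigen presentation genes had 7 members of 26 events (26.9%), of which 5 belonged to Aire, with a loss under Raver2 knockdown in Aire events 3 and 8.

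Tissue-restricted antigens had 2 members of 28 events (7.14%), Gucy2c with the loss and Fga, the fibrinogen alpha chain, without it. Signalling genes had 4 of 78 (5.13%), with the loss in Sphk1, and trafficking genes 2 of 71 (2.82%), with the loss in Atp6v1c2. The list of fibroblast and matrix genes had 25 matched events and 0 members. No list held more than 4 lost members, so nothing is read from these shares.

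Losses were also counted by the level in Ctr. Of 284 events between 0.9 and 0.99 in both Ctr libraries, 12 (4.23%) had a loss under Raver2 and 9 (3.17%) under Setd2 knockdown, against 37 and 28 of 322 members. Losses of over 0.5 were made by 2 and 1 of the 284. Of 678 events between 0.5 and 0.9 in Ctr, 53 (7.82%) and 52 (7.67%) had a loss of over 0.1. The members were thus lower more often than the class beneath them, and they made more of the large losses.

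**Figure D4:**
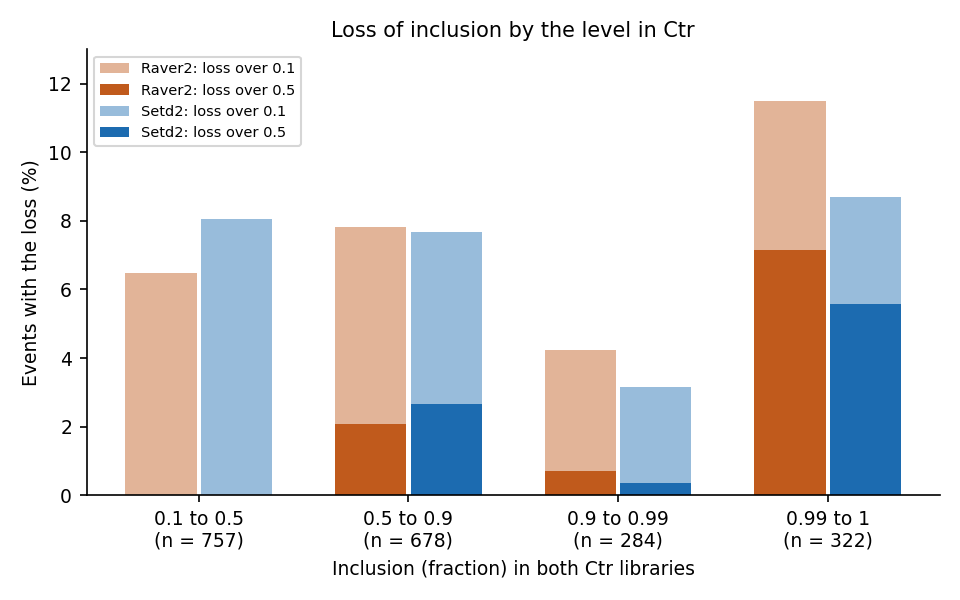
Share of events (y axis, percent) with a loss of over 0.1 (pale bars) or over 0.5 (dark part) under Raver2 and Setd2 knockdown, by inclusion in both Ctr libraries (x axis). Members, at the right, reach 11.5% and 8.70%; events from 0.9 to 0.99 reach 4.23% and 3.17%.

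Several properties that the rule did not use were close to those of all events. Members had a median of 8 annotated transcripts per gene, as did all events, and genes with a median length of 29.0 kb against 32.8 kb. Protein-coding genes held 97.1% of annotated members and 97.9% of all annotated events, and the X chromosome 5.14% and 4.63%. Genes with 1 event held 31.4% of members and 36.0% of all events. Among the 48 members with a loss under at least 1 knockdown, 22 (45.8%) were the single event of their gene, and 7 (14.6%) had provisional gene names, such as A730056A06Rik, against 16 (4.97%) of all members. In members from genes with 1 event the loss was made by 16 of 101 (15.8%) under Raver2 and 15 of 101 (14.9%) under Setd2 knockdown, and in the corresponding mirror sets by 14 of 95 (14.7%) and 15 of 106 (14.2%).

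Of the 221 members in genes with several events, 64 had a complement in the same gene, an event whose inclusion summed to within 0.02 of 1 in every library. Another event of the same gene that was also a member held values within 0.02 in every library for 42 members. Members are therefore not independent of each other. Among the 26 lost members in such genes, 5 had a complement.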

How the data were processed

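The deposited tables hold 1 fraction per event and library, its inclusion frequency. The tools named, per the submitters' processing notes, are Cufflinks, TopHat2 and Trimmomatic 0.39, and the build is mm10. Not given in the sources used here: how the frequency was computed, the event classes and any coverage filter. The 6 tables were joined by gene symbol and row order, keeping genes with equal row numbers in all 6. Members, gene lists and thresholds were chosen with earlier results of these data known. A loss was a gap of over 0.1 between the lowest Ctr and the highest knockdown library. limma 3.58.1 (R 4.3.3) was fitted to the fractions of the 4 knockdown libraries with a mean per group and a variance trend, two-sided, with Benjamini-Hochberg adjustment over 4658 events; Ctr was left out because the rule fixes its spread. The fit was tested on simulated data with a normally distributed spread. It called 42 of 100 events shifted by 0.3, 88 of 100 shifted by 0.9, and 22 of 4458 unchanged events. Small shifts were thus often missed. The 22 false calls, beside 42 and 88 calls of shifted events, were a larger share of calls than the limit of 0.05 aims at. Tables were read with Python 3.11.15 and pandas 2.3.3. Named were the members with the largest losses under both knockdowns (14), under 1 with the other full (8 each), at intermediate values (6 each), members called by limma, up to 3 lost members per list, Aire and events next to the limits; some of the last groups are not printed. Gene positions came from GENCODE M21 (mm10) by symbol. Depth is unknown.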

Additional observations from a re-analysis of the deposited data

Results flagged for a closer look

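The difference between the knockdowns was itself tested, and 3 members passed. Inclusion under Raver2 minus that under Setd2 knockdown was -0.99998 in event 1 of Tlcd1 and -0.99987 in event 5 of Pdlim5, both lower under Raver2 knockdown. It was 0.997 in event 1 of Ank1, lower under Setd2 knockdown. Each had an adjusted p = 0.0491 by limma over the 4 knockdown libraries, and the share of members called, 0.932%, was near that of all events, 0.988%. None of the 3 was called with hairpin number as a replicate block (adjusted p = 0.504), with repeated events left out (0.0535) or with any 1 knockdown library left out (0.0604 to 0.107). In Ank1, member events 8 and 11 did not differ in this way, because Setd2 library 2 was above 0.99 in both. What underlies these differences was not tested.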

How the results depend on the processing

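With a gap of over 0.5, 23 and 18 members were lost under Raver2 and Setd2 knockdown, and 18 and 13 mirror events in Ctr. Among genes with 1 event, 16 and 15 members were lost and 9 under both knockdowns, and 14 and 15 mirror events were lost. Leaving out each library in turn gave 64 to 150 members lost under Raver2 knockdown, 57 to 130 under Setd2, 19 to 88 under both, and 79 to 124 and 87 to 140 mirror events; fewer libraries then have to meet the rule. Between the knockdowns, limma called 0 to 149 events and 0 to 17 members with 1 library left out, where the lone library is assumed to vary like the others. It called 5 members after an arcsine transform, 6 with all 6 libraries in the fit and 5 with members defined above 0.95 in Ctr. With repeated events left out limma called 0 events and 0 members, with 305 and 13 at an unadjusted p under 0.05. The smallest adjusted p of any event by limma was 0.0491 in the main fit and 0.0535 without repeated events. Every call of the main fit thus stood just under the limit of 0.05. The cause of the change was not tested. With hairpin number as a replicate block limma called 0 events and 0 members (265 and 10 at an unadjusted p under 0.05). The deviations of same-numbered libraries had a correlation of 0.0146. Whether an equal number marks a shared culture or day is not stated, and a correlation over all events cannot decide it. The order of members and mirrors turned: members were lost more often at a gap of over 0.5, and in genes with 1 event (15.8% and 14.9%, against 14.7% and 14.2%). Without Ctr library 1, 120 members (20.3%) were lost under Raver2 and 125 (21.2%) under Setd2 knockdown, so the order of the knockdowns turned. The mirror shares there, 23.2% and 23.0%, stayed above those of the members. Without coordinates or depth, low-coverage events could not be set apart.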
